A study of Arabidopsis thaliana with 12 samples.

Results

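Pentatricopeptide repeat (PPR) and chlororespiratory reduction (CRR) genes were selected by name among the probe sets of the array that represent a single gene. A probe set was taken when its gene's names held "pentatricopeptide" or "PPR" as a word, or when its symbol was CRR followed by digits, and the mean of log2(intensity + 7) over all 12 arrays had to reach 5.5. In the gene table, 24 genes matched by name, and 7 of them had a single-gene probe set. The level minimum left 5 of the 13356 genes that had a single-gene probe set (13513 probe sets): PPR336 (AT1G61870), PPR596 (AT1G80270), CRR21 (AT5G55740), CRR41 (AT1G51100) and CRR42 (AT5G20935). The selection is therefore a small and name-dependent sample of a very large family. Only PPR336, PPR596 and CRR21 are PPR proteins. CRR41 and CRR42 entered by their symbol and are known as factors that help to assemble the chloroplast NADH dehydrogenase-like (NDH) complex, so the 5 are called PPR and CRR genes here.

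The arrays (Affymetrix ATH1) measured RNA of whole Arabidopsis thaliana seedlings of ecotype Columbia in 4 groups of 3. Dark-grown MIF1OE, dark-grown vector, light-grown MIF1OE and light-grown vector seedlings were all 7 days old and in the T2 generation. Seeds were kept at 4 °C for 2 days before growth. Seedlings grew at 22 °C under selection with hygromycin (50 µg/mL), and survivors of the selection were used. MIF1OE seedlings carry MINI ZINC FINGER 1 under the 35S promoter, which drives it constitutively in most tissues, with line 124 giving replicates 1 and 2 and line 127 giving replicate 3. Vector seedlings carry the vector without it, and lines 1, 4 and 7 gave replicates 1, 2 and 3. Days of the light-grown seedlings were 16 h light and 8 h dark, and the dark-grown ones received 2 h of light at germination and none after it. The level of MIF1 itself is not reported, because it was not among the named probe sets.

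PPR proteins are made of tandem helical repeats that bind single-stranded RNA, each repeat contacting a base. They are encoded in the nucleus and most act in chloroplasts or mitochondria, where they guide RNA editing, splicing, end processing, stabilisation and translation of organelle transcripts. The CRR genes were found in mutants that lack activity of the chloroplast NDH complex, which returns electrons from ferredoxin to the plastoquinone pool in cyclic electron flow around photosystem I. CRR21, CRR22 and CRR28 are PPR proteins that specify editing sites in plastid transcripts, among them those of ndhD, which encodes an NDH subunit.

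In darkness the 3 CRR genes were lower than in light in both genotypes, and within darkness CRR21 was lower in MIF1OE than in vector seedlings. PPR596, which encodes a mitochondrial protein, was called in no comparison. PPR336 was called only between darkness and light in vector seedlings, and there only with plant source as a replicate block or after quantile normalization. Intensities below are linear probe set values in the order of replicates 1, 2 and 3, and fold changes are differences of log2(intensity + 7) with the standard error (SE) of limma, 3 arrays per group. A gene was called when its Benjamini-Hochberg adjusted p over all 15922 probe sets tested was under 0.05.

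CRR21, the chloroplast editing factor for ndhD, had intensities of 17.9, 20.9 and 20.0 in dark-grown MIF1OE and 46.8, 45.6 and 38.9 in dark-grown vector seedlings. In light it had 100.0, 84.7 and 64.6 in MIF1OE and 87.0, 90.8 and 109 in vector seedlings. Every dark array was below every light array, and within darkness every MIF1OE array was below every vector array. In light the genotypes overlapped. Darkness against light gave a log2 fold change of -1.74 (SE 0.17, limma adjusted p = 6.48e-05) in MIF1OE and of -1.01 (SE 0.17, adjusted p = 0.00108) in vector seedlings.

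CRR41, an NDH assembly factor, had intensities of 24.2, 42.0 and 45.9 in dark-grown MIF1OE and 128, 146 and 139.6 in light-grown MIF1OE seedlings. In vector seedlings it had 37.2, 27.3 and 44.3 in darkness and 122, 108 and 138 in light. Dark and light did not overlap in either genotype, whereas the genotypes overlapped in both conditions. It fell by 1.74 (SE 0.22, limma adjusted p = 0.000175) in MIF1OE and by 1.60 (SE 0.22, adjusted p = 0.000338) in vector seedlings.

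CRR42, which also acts in NDH assembly, had intensities of 7.04, 14.1 and 16.4 in dark-grown MIF1OE and 90.9, 68.9 and 68.1 in light-grown MIF1OE seedlings. In vector seedlings it had 47.4, 11.9 and 42.6 in darkness and 123, 120.5 and 224 in light. It had the widest spread of the 5 genes, with a standard deviation (SD) of 1.28 on the log2 scale over the 12 arrays, and the array of dark-grown vector line 4 lay near the MIF1OE values. In darkness it was 4.32-fold lower in MIF1OE (log2 fold change -2.11, SE 0.38, limma adjusted p = 0.00147) and 4.22-fold in vector seedlings (-2.08, SE 0.38, adjusted p = 0.00166).

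**Figure D1:**
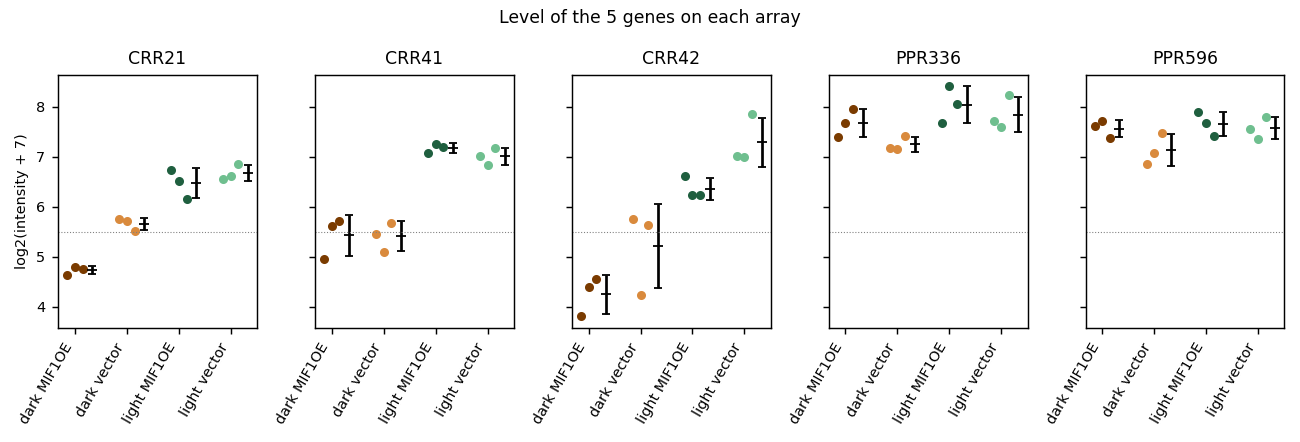
Level of the 5 genes, as log2(intensity + 7), on each of the 12 arrays, 1 point per array, with the mean and SD of each group of 3 beside the points and the level minimum of 5.5 as a dotted line. CRR21, CRR41 and CRR42 lie lower on all dark arrays than on the light arrays of the same genotype. Dark-grown MIF1OE seedlings are the lowest group for CRR21, at 4.73 ± 0.08, and for CRR42, at 4.25 ± 0.39 (SD, n = 3).

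PPR336, a mitochondrial protein found with ribosomes, had intensities of 162, 199 and 242 in dark-grown MIF1OE and 196, 332 and 260.3 in light-grown MIF1OE seedlings. In vector seedlings it had 138, 135 and 164 in darkness and 202, 186 and 294 in light. The vector groups did not overlap, yet the difference of -0.60 (SE 0.23, limma adjusted p = 0.0699) did not pass. With plant source as a replicate block the same difference passed (SE 0.16, limma adjusted p = 0.0232), and after quantile normalization it was -0.65 (SE 0.23, limma adjusted p = 0.0478). In MIF1OE seedlings it was -0.36 (SE 0.23, adjusted p = 0.298).

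PPR596, a mitochondrial protein linked to editing of the rps3 transcript, had intensities of 188, 202 and 159 in dark-grown MIF1OE and 231, 197 and 163 in light-grown MIF1OE seedlings. In vector seedlings it had 109, 128 and 171 in darkness and 182, 157 and 215 in light. All 4 groups overlapped with another group, and it was the steadiest of the 5 genes (SD 0.30 over the 12 arrays). The differences between darkness and light were -0.10 (SE 0.20, limma adjusted p = 0.778) in MIF1OE and -0.43 (SE 0.20, adjusted p = 0.122) in vector seedlings.

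Darkness against light thus called 3 of 5 genes, all lower, in MIF1OE and 3 of 5, all lower, in vector seedlings. Among all probe sets tested, 24.2% were called in MIF1OE (11.8% lower) and 30.3% in vector seedlings (13.6% lower). Groups without overlap, lower in darkness, were found for 3 of the 5 genes in MIF1OE, where 17.5% of all probe sets tested had such groups, and for 4 of the 5 in vector seedlings, where 19.0% had them. The median log2 fold change over the 5 genes was -1.74 in MIF1OE and -1.01 in vector seedlings, beside medians of 0.09 and 0.06 over all probe sets tested. These counts and medians are descriptions, because CRR21, CRR41 and CRR42 reached the level minimum through their light arrays: their means over the 6 dark arrays were 5.20, 5.43 and 4.73. With only the single array of line 127 for MIF1OE in each condition, the falls in MIF1OE were not called, at log2 fold changes of -1.41, -1.47 and -1.68. Calls over all probe sets were also far fewer at that setting.

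**Figure D2:**
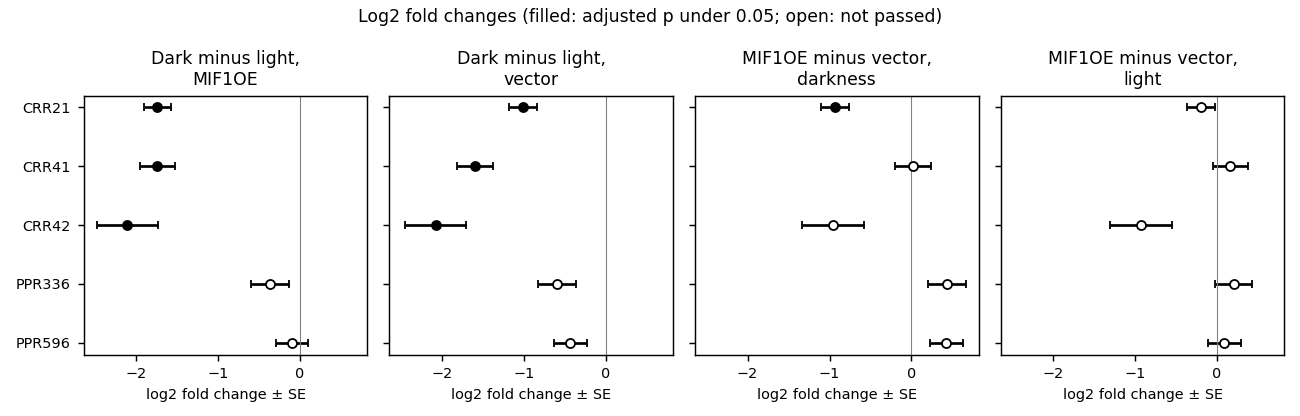
Log2 fold changes of the 5 genes with their SE (bars) in 4 comparisons, filled where the limma adjusted p was under 0.05. Filled points appear for the CRR genes in both comparisons of darkness with light and for CRR21 alone (-0.93) between MIF1OE and vector in darkness.

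Each line was grown in both conditions, so its light- and dark-grown seedlings can be compared directly. A plant source here is a line or, for line 124, a replicate number of that line. The sample titles do not say that equal replicate numbers of line 124 share plants. CRR21, CRR41 and CRR42 were lower in darkness in 6 of 6 sources. The dark-minus-light difference of CRR21 was -2.10, -1.72 and -1.41 in the 3 MIF1OE sources and -0.81, -0.89 and -1.34 in the 3 vector sources. The genotypes did not overlap, but their nearest values, -1.41 and -1.34, were close. The difference between the dark and light MIF1OE effects on CRR21 was not called (limma adjusted p = 0.237). The share of all probe sets with such a separation, or lower in 6 of 6 sources, was not computed. For CRR41 the dark-minus-light difference ran from -2.11 to -1.47 in MIF1OE and from -1.74 to -1.50 in vector sources, ranges that overlap. For CRR42 it ran from -2.80 to -1.68 in MIF1OE and from -2.75 to -1.26 in vector sources. PPR336 was lower in darkness in 6 of 6 sources by 0.10 to 0.82, and PPR596 was lower in 5 of 6.

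**Figure D3:**
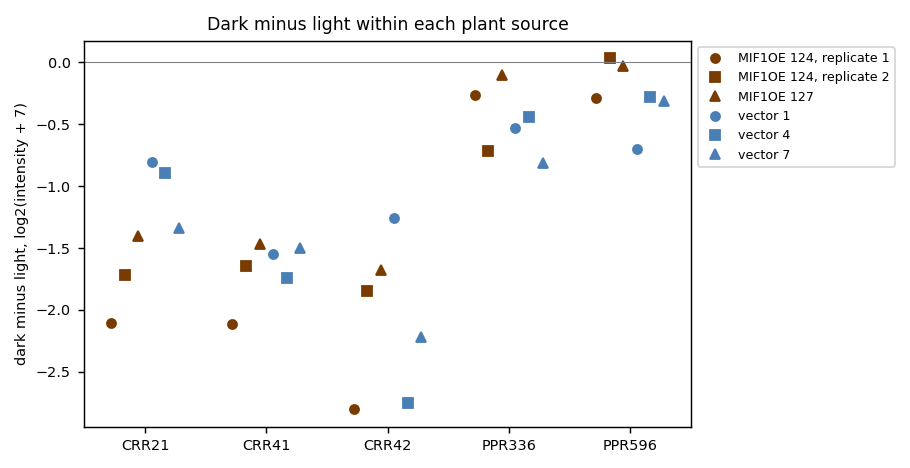
Difference of log2(intensity + 7) between darkness and light within each of the 6 plant sources (MIF1OE brown, vector blue). All sources lie below 0 for CRR21, CRR41, CRR42 and PPR336, and the MIF1OE sources of PPR596 lie between -0.29 and 0.03.

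The comparison of MIF1OE with vector seedlings in darkness asked whether the transgene altered these genes in the etiolated state. CRR21 fell by 0.93 (SE 0.17, limma adjusted p = 0.00528), a 1.90-fold lower level, and was the 1 gene of 5 called. Its mean log2 level in dark-grown MIF1OE seedlings, 4.73, was below the level of 4.94 used to filter dim probe sets. No detection calls were used. Of all probe sets tested 12.9% were called in this comparison, 6.75% lower. It was also the 1 gene of 5 with lower groups that did not overlap, as 17.9% of all probe sets tested had. The call held when any single array was left out. It was lost with line 127 alone, which leaves 1 MIF1OE array per condition, at a log2 fold change of -0.91 (SE 0.25). Calls over all probe sets were also far fewer at that setting. CRR42 was at -0.96 (SE 0.38, limma adjusted p = 0.114). Without dark vector replicate 2, from line 4, it was at -1.45 (SE 0.29, limma adjusted p = 0.0156) and was called. The mean log2 level of CRR42 in dark-grown MIF1OE seedlings, 4.25, was also below the filter level of 4.94. CRR41 was at 0.02 (SE 0.22, adjusted p = 0.972), while PPR336 was at 0.43 (SE 0.23, adjusted p = 0.246) and PPR596 at 0.43 (SE 0.20, adjusted p = 0.186). The median over the 5 genes was 0.02, beside -0.00 over all probe sets tested.

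In light, none of the 5 genes was called by limma between MIF1OE and vector seedlings, where 0.986% of all probe sets tested were. CRR42 was the 1 gene with an unadjusted p under 0.05 and the 1 whose groups did not overlap, at -0.93 (SE 0.38, limma adjusted p = 0.349). For comparison, 11.5% of all probe sets tested had such a p and 7.01% had lower groups that did not overlap. CRR21 was at -0.20 (SE 0.17), CRR41 at 0.16 (SE 0.22), PPR336 at 0.20 (SE 0.23) and PPR596 at 0.09 (SE 0.20).

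The difference between the dark and the light effect of MIF1OE was tested as an interaction. It was called for none of the 5 genes, and for 0.741% of all probe sets tested. CRR21 had the largest difference of the 5, at -0.73 (SE 0.24, limma adjusted p = 0.237), and was the 1 gene with an unadjusted p under 0.05, which 11.2% of all probe sets tested had. PPR596 (0.34, SE 0.28), PPR336 (0.23, SE 0.33), CRR41 (-0.15, SE 0.31) and CRR42 (-0.03, SE 0.53) were closer to 0. A lower CRR21 level in MIF1OE seedlings in darkness was thus called, but a difference of that effect from the one in light was not.

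The genes nearest to the level minimum were CRR42 (mean 5.78) and CRR21 (5.89) inside it and CRR22 (AT1G11290, mean 5.20) and CRR28 (AT1G59720, mean 5.06) outside it. CRR22 and CRR28 are PPR editing factors of chloroplast transcripts. CRR22 had intensities of 8.20, 14.3 and 11.7 in dark-grown MIF1OE and 22.2, 19.6 and 24.5 in dark-grown vector seedlings, and in light it ran from 35.8 to 70.1 in MIF1OE and from 46.7 to 56.8 in vector seedlings. In darkness CRR22 fell by 1.69 (SE 0.21, limma adjusted p = 0.000178) in MIF1OE and by 1.02 (SE 0.21, adjusted p = 0.00365) in vector seedlings. Between MIF1OE and vector in darkness CRR22 was at -0.67 (SE 0.21, adjusted p = 0.0561), with groups that did not overlap. Lower groups without overlap were found for 17.9% of all probe sets tested in that comparison. CRR22 was dim in darkness. Its mean log2 levels in darkness, 4.19 in MIF1OE and 4.86 in vector seedlings, were below the filter level of 4.94. CRR28 fell in darkness in MIF1OE seedlings (-0.74, SE 0.17, adjusted p = 0.00801) and was at -0.47 (SE 0.17, adjusted p = 0.0569) in vector seedlings.

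A wider view came from a list of 67 PPR loci written from general knowledge of the family, 21 of which had a single-gene probe set. The list was chosen with earlier results of these data known, so its counts are descriptions. CRR21 and PPR336 are on it. Of the other 19, 14 passed the filter on dim probe sets, and 3 of these 14 (CRR22 and CRR28 among them) had a mean over the dark arrays below that filter. In darkness 9 of the 14 fell in MIF1OE and 7 of the 14 fell in vector seedlings, and none rose. Of all probe sets tested 11.8% fell in MIF1OE and 13.6% in vector seedlings. The median log2 fold change was -0.75 in MIF1OE and -0.49 in vector seedlings.

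Among those with a name in the gene table, LPA66, an editing factor for the photosystem II transcript psbF, fell in both genotypes (-0.75, SE 0.19, in MIF1OE and -0.81, SE 0.19, in vector seedlings). Its call in MIF1OE ended without dark MIF1OE replicate 1 (limma adjusted p = 0.0588). The editing factors OTP84 and OTP81 fell in vector seedlings by 0.69 (SE 0.15) and 1.33 (SE 0.38), and stood at -0.45 (SE 0.15) and -0.97 (SE 0.38) in MIF1OE seedlings. The call of OTP81 ended without vector replicate 2 in either condition and without light vector replicate 3 (limma adjusted p up to 0.0816). OTP70, which acts in splicing of a plastid RNA polymerase transcript, was at 0.03 (SE 0.24) in MIF1OE and -0.21 (SE 0.24) in vector seedlings. AT3G03580, listed as a mitochondrial editing factor, has no name in the gene table. It was at -0.14 (SE 0.20) in MIF1OE and -0.17 (SE 0.20) in vector seedlings. Of the other mitochondrial factors, OTP43, needed for splicing of nad1, was at 0.11 (SE 0.19) in MIF1OE and -0.50 (SE 0.19) in vector seedlings. OTP87, an editing factor, fell by 0.48 (SE 0.15) in MIF1OE and by 0.43 (SE 0.15) in vector seedlings, calls that ended when any of 6 and of 10 of the 12 arrays was left out. Over all alternatives the limma adjusted p of OTP87 ran up to 0.376 in MIF1OE and 0.149 in vector seedlings.

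Other loci of the list have no name in the gene table. AT5G46580, with the largest fall of the 14 in both genotypes (-2.17, SE 0.23, in MIF1OE and -1.57, SE 0.23, in vector seedlings), had intensities of 55.4, 92.9 and 90.8 in dark-grown MIF1OE and 410, 372 and 346 in light-grown MIF1OE seedlings, against 110, 101 and 136 in darkness and 268, 352 and 474 in light in vector seedlings. No dark array of either genotype reached a light array. Groups without overlap, lower in darkness, were found for 17.5% of all probe sets tested in MIF1OE and 19.0% in vector seedlings. AT5G42310 fell in darkness by 1.63 (SE 0.19) in MIF1OE and by 1.06 (SE 0.19) in vector seedlings. AT3G22150 and AT4G37380 fell in MIF1OE seedlings (-1.36, SE 0.21, and -0.75, SE 0.19), and in vector seedlings they were at -0.46 (SE 0.21) and -0.40 (SE 0.19). The call of AT4G37380 ended without dark MIF1OE replicate 2 (-0.54, limma adjusted p = 0.0589). Its mean log2 level over the dark arrays, 4.91, was below the filter level of 4.94.

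Between MIF1OE and vector seedlings in darkness 3 of these 14 loci fell and none rose, against 6.75% lower among all probe sets tested. AT5G04810 had intensities of 112, 105 and 102 in dark-grown MIF1OE and 284, 374 and 290 in dark-grown vector seedlings. Its log2 fold change was -1.51 (SE 0.24, limma adjusted p = 0.0023). AT3G22150 had 20.0, 32.4 and 29.8 in dark-grown MIF1OE and 89.5, 72.9 and 96.7 in dark-grown vector seedlings (-1.45, SE 0.21, limma adjusted p = 0.00146). Neither locus had overlapping groups in darkness, where 17.9% of all probe sets tested had lower groups that did not overlap. With line 127 alone, which leaves 1 MIF1OE array per condition, AT5G04810 was at -1.56 (SE 0.30) and AT3G22150 at -1.34 (SE 0.28). The call of AT3G22150 was lost there, at a setting where calls over all probe sets were far fewer. AT5G42310 fell by 0.88 (SE 0.19, adjusted p = 0.0114), which did not pass once dark vector replicate 3 was left out (limma adjusted p = 0.0506). With line 127 alone AT5G42310 was at -0.72 (SE 0.29) and did not pass either. In light none of the 14 was called between the genotypes, where 0.986% of all probe sets tested were. The interaction was called for none of the 14, and for 0.741% of all probe sets tested. AT5G04810 was the 1 locus of the 14 above 0 in vector seedlings between darkness and light (0.39, SE 0.24, limma adjusted p = 0.232), whereas it fell in MIF1OE seedlings (-0.95, SE 0.24, adjusted p = 0.0112).

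**Figure D4:**
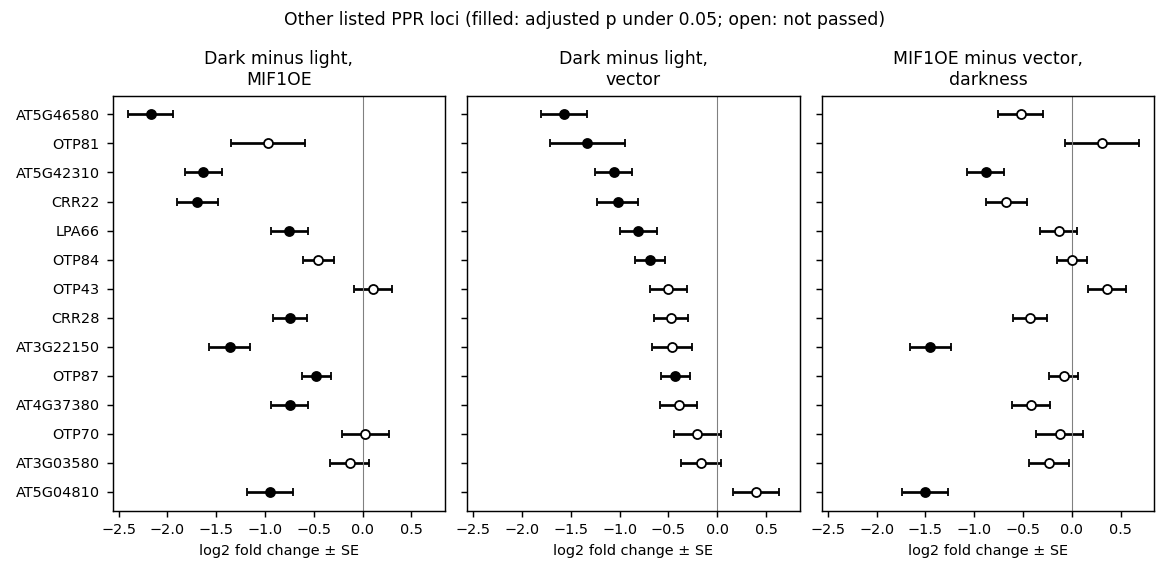
Log2 fold changes with SE (bars) of the 14 other listed PPR loci that were tested, ordered by the difference between darkness and light in vector seedlings, filled where the limma adjusted p was under 0.05. The filled points, 9 in MIF1OE and 7 in vector seedlings for darkness against light and 3 for MIF1OE against vector in darkness, all lie below 0.

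Other genes of organelle RNA metabolism were taken from lists of editing partners, splicing factors, sigma factors, RNA polymerases, ribonucleases and RNA-binding proteins. These lists too were chosen with earlier results known, so their counts are descriptions. Of 55 loci 6 were measured, and 5 of these 6 fell in darkness in each genotype, where 11.8% of all probe sets tested fell in MIF1OE and 13.6% in vector seedlings. AT2G35410 had the largest fall of the 6 in both genotypes, with log2 fold changes of -1.72 (SE 0.18) in MIF1OE and -1.51 (SE 0.18) in vector seedlings. AT2G37220 fell by 1.36 (SE 0.19) in MIF1OE and by 0.71 (SE 0.19) in vector seedlings, and AT1G32580 fell by 0.71 (SE 0.22) in MIF1OE and by 0.85 (SE 0.22) in vector seedlings. The call of AT1G32580 in MIF1OE ended without MIF1OE replicate 1 in either condition, dark replicate 2 or light replicate 3 (limma adjusted p up to 0.118), and that of AT2G37220 in vector seedlings without dark replicate 3 or light replicate 2 (limma adjusted p = 0.0519 and 0.0515). The gene table gives these 3 loci no name. CAF1 and CFM3A, which act in the splicing of plastid introns, fell by 1.53 (SE 0.22) and 1.19 (SE 0.19) in MIF1OE and by 1.40 (SE 0.22) and 0.76 (SE 0.19) in vector seedlings. AT2G37220 was the 1 gene of the 6 called between MIF1OE and vector in darkness (-0.84, SE 0.19, limma adjusted p = 0.014), where 6.75% of all probe sets tested fell. That call ended without dark MIF1OE replicate 1 or dark vector replicate 2 (limma adjusted p = 0.0522 and 0.0511). It also ended with line 127 alone (-0.63, SE 0.27), where calls over all probe sets were far fewer.

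NDH subunits were examined after the values of the CRR genes had been seen. The nuclear genes NdhL, NdhN and NdhS fell in darkness, with log2 fold changes of -2.57, -2.29 and -1.49 in MIF1OE and -2.31, -2.14 and -0.91 in vector seedlings. Of all probe sets tested 11.8% fell in darkness in MIF1OE and 13.6% in vector seedlings. The call of NdhS in vector seedlings ended without dark vector replicate 2 (limma adjusted p = 0.0534). Between MIF1OE and vector in darkness all 3 lay below 0 and NdhL was called (-0.91, SE 0.27, limma adjusted p = 0.0428), a call lost in 16 of 24 alternatives. The 10 plastid-encoded ndh genes all lay below 0 in that comparison too, and none was called. Of all probe sets tested 6.75% were called lower there, and their median was -0.002. The share of all probe sets below 0 was not computed. None of the 10 plastid genes was called between darkness and light in vector seedlings, where all 10 lay below 0. In MIF1OE seedlings 2 of the 10 fell in darkness (ndhJ by 1.36, SE 0.35, and ndhE by 1.07, SE 0.23), beside 11.8% of all probe sets tested. The plastid gene ndhD, whose transcript CRR21 helps to edit, was at -0.61 (SE 0.29, limma adjusted p = 0.156) in MIF1OE and at -0.25 (SE 0.29, adjusted p = 0.557) in vector seedlings. The arrays measure the level of a transcript and not its editing.

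The seedlings were whole plants, so fewer cells of a type and less RNA per cell cannot be told apart. Of all probe sets tested 11.8% fell in darkness in MIF1OE and 13.6% in vector seedlings. Of 17 listed genes of green tissue 4 were measured, and 3 of the 4 fell in darkness in each genotype. Their summed intensity was 3879 to 5643 in dark-grown MIF1OE, 4214 to 7801 in dark-grown vector, 10175 to 10644 in light-grown MIF1OE and 11121 to 16051 in light-grown vector seedlings. Of 7 listed root genes 6 were measured, and 5 of the 6 rose in dark-grown MIF1OE over dark-grown vector seedlings (sums of 6566 to 7516 in MIF1OE and 4579 to 5637 in vector). Of 11 seed storage and embryo genes 7 were measured and all 7 rose in that comparison, in which 6.14% of all probe sets tested rose (sums of 947 to 9027 in MIF1OE and 80.1 to 408 in vector). In light these sums were 4239 to 5618 in MIF1OE and 4749 to 5682 in vector seedlings for the root genes, and 384 to 668 in MIF1OE and 48.1 to 139 in vector seedlings for the seed genes. The part of these tissues in the differences of CRR21 and the other PPR genes was not tested.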

How the data were processed

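The authors deposited 1 linear intensity per probe set, made with GCOS (Affymetrix) per the submitters' processing notes. Its version and a genome build are not given in the sources used here. All arrays had a trimmed mean of 150.01 (2% cut from either end), and that scaling by the authors was left as it was. From these, log2(intensity + 7) was computed. Control probe sets (64) and those at or below the 30th percentile of the mean level (4.94) were left out, and 15922 of 22746 were tested. No detection calls were used. Contrasts were fitted with limma 3.58.1 (R 4.3.3; lmFit, eBayes) on all 12 arrays and 4 group means, with Benjamini-Hochberg adjustment. The number of arrays limits the precision. P-values measure the spread between samples of which 2 of 3 MIF1OE samples per condition share a line.

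Names came from the platform annotation and from RefSeq gene names and synonyms (TAIR10.1), which stand here for gene descriptions. "PPR" inside another word, such as "suppressor", was not taken (1 measured gene). Of 22746 probe sets, 13513 named 1 gene, 503 several and 8730 none. Each of the 5 genes had 1 probe set. Members and lists were chosen with earlier results of these data known. Named genes were the 10 largest called changes per direction and contrast among the members, which left all 5 to be described. The measured list loci (the untested ones by count), those next to the level minimum and the called partner genes were named too. Up to 4 partner genes per contrast were planned, but all 5 called between darkness and light were named.

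Samples of 1 plant source in light and darkness are paired by line in the labels. The deviations of these 6 pairs from their group means correlated with r from 0.233 to 0.339 across probe sets. The pairing was entered as an alternative, as a fixed replicate block or, for MIF1OE against vector, a random block. Other alternatives were the normalization, pseudocount, floor, filter, variance trend, arrays in the fit, line and member rule.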

Additional observations from a re-analysis of the deposited data

How the results depend on the processing

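Of 585 values of the 5 genes under alternative settings, 559 kept the direction and the side of the threshold, 4 lost a call, 3 gained one and 19 turned in sign, the last all among differences that were not called. The count of genes called between MIF1OE and vector in darkness (1) was 0 with the 50th percentile filter, with line 127 alone and with a level minimum of 6.5, and 1 to 2 when single arrays were left out. For darkness against light in MIF1OE (3) it was 1 with the 50th percentile filter and 0 with line 127 alone or the minimum of 6.5. In vector seedlings (3) it was 1 with that filter and 0 with that minimum. The filter removes CRR21 and CRR42 and the minimum leaves only PPR336 and PPR596. Line 127 has 1 array per condition, which is assumed to vary like the other groups. The counts in light and for the interaction were 0 throughout. Median log2 fold changes moved by more than the spread between arrays (0.31) in these cases: MIF1OE against vector in darkness 0.43 with that filter or that minimum, the interaction 0.40 with line 127 and 0.28 with that minimum, darkness against light in vector seedlings -0.60 with that filter and -0.51 with that minimum, and in MIF1OE seedlings -0.36 with that filter, -0.23 with that minimum, -1.41 with line 127 and -1.15 with a pseudocount of 32.

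Signs turned for PPR596 in light (-0.16 with line 127, -0.029 to 0.21 without single arrays) and between darkness and light in MIF1OE (-0.22 to 0.022), for CRR41 between genotypes in darkness (-0.13 with line 124 alone, -0.14 to 0.25) and in the interaction (0.13 with line 127, -0.30 to 0.090), and for CRR42 in the interaction (0.0010 with median-centred arrays, 0.40 with line 127, 0.24 with a pseudocount of 32, -0.52 to 0.24). The replicate block changed no call of the 5 genes other than that of PPR336 in vector seedlings. Over all probe sets the alternatives called 363 to 2418 between genotypes in darkness (2052 in the fit reported), 45 to 265 in light (157), 9 to 211 for the interaction (118), 22 to 4699 for darkness against light in MIF1OE (3846) and 2971 to 5843 in vector seedlings (4829). Among the 14 other PPR loci, leaving out single arrays gave 7 to 10 calls in MIF1OE and 5 to 8 in vector seedlings for darkness against light, and 2 to 4 between genotypes in darkness. With line 127 alone, which leaves 1 MIF1OE array per condition, most calls of these loci and of the partner genes that involve MIF1OE were lost. Calls over all probe sets were far fewer in the same comparisons. A call lost at that setting is therefore not particular to these genes. CRR42 in dark-grown MIF1OE seedlings, at 7.04 to 16.4, was near the pseudocount. Its fold changes against that group depend on the pseudocount and may be understated. With line 127 alone, 22 probe sets in all were called for darkness against light in MIF1OE. The cause of the other changes was not tested.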
